A study of Homo sapiens with 4 samples.

Results

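The integrated stress response was followed through 10 genes in RNA-seq libraries of cells labelled NB4, without treatment or with the BET protein degrader GNE-987. The genes were ATF4, the transcription factor at the centre of the response, ATF5, DDIT3, DDIT4, ASNS, CHAC1, TRIB3, SESN2, PPP1R15A and VLDLR. They were the rows of the deposited table whose Ensembl identifier carries one of these symbols in GENCODE release 44, which gave 10 of 58735 genes. The rule reads names and no values, but the 10 symbols were picked with earlier results of these data known.

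NB4 is the name of an established human line of acute promyelocytic leukemia. There were 4 libraries, 2 of control cells labelled as having had no treatment and 2 of GNE-987-treated cells. A legend of the study puts the treatment at 25 nM for 24 h, and the labels name no other agent or allele. GNE-987 joins a ligand of BET proteins, readers of acetylated histones, to a ligand of a ubiquitin ligase, and so marks them for degradation.

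When a cell lacks amino acids or heme, carries unfolded proteins in the endoplasmic reticulum or senses viral RNA, one of several kinases phosphorylates the translation factor eIF2. General protein synthesis then slows, while translation of a few messages with upstream reading frames, ATF4 first among them, goes up. ATF4 dimerises with other bZIP factors and switches on genes for amino acid supply, tRNA charging, redox balance and cell death. Because ATF4 is set largely in translation, its RNA level is no measure of its protein, and protein was not measured in these libraries.

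The labelled identity was checked first. All 11 erythroid markers were above 1 FPKM (fragments scaled by exon length and by library) in both control libraries, and the erythroid factor GATA1 was at 124 and 122 FPKM. Of 8 promyelocyte markers, 2 were above 1 FPKM in both, ELANE and CTSG were listed at 0 in both, and MPO was at 0.0246 and 0 FPKM, so the markers went against the label and the cells are called here the cells labelled NB4. With GNE-987 the summed level of the erythroid markers went from 698 and 702 to 968 and 846 FPKM, that of the promyelocyte markers from 10.1 and 8.65 to 32.0 and 29.4, that of 4 megakaryocyte markers from 1.39 and 1.41 to 6.33 and 7.44, and that of 3 lymphoid markers from 0.936 and 0.950 to 23.7 and 22.0. Reads recovered from the steps of the values came to between 12400367 and 19466687 on genes per library, the GNE-987 libraries being the shallower, and mitochondrial genes took 3.75% and 4.54% of them in control against 15.6% and 15.2% with GNE-987. The part of these differences in the results was not tested. In bulk RNA, fewer cells of a type and less RNA per cell cannot be told apart.

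**Figure D1:**
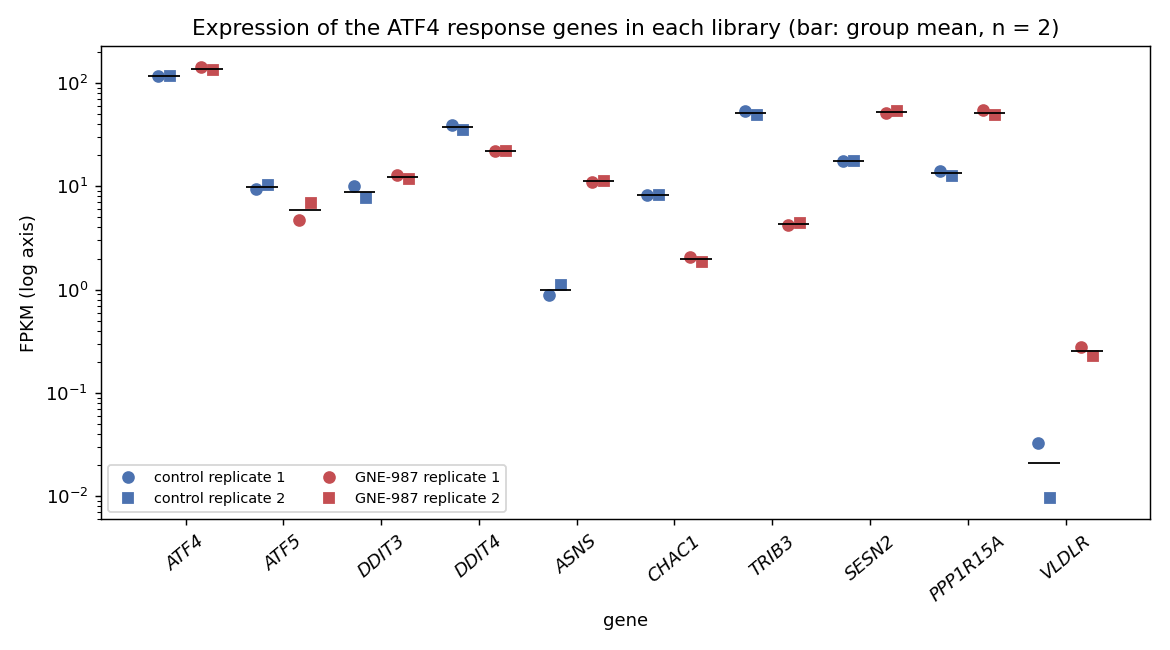
FPKM of each ATF4 response gene (horizontal axis) in each library on a log vertical axis, with circles and squares for replicates 1 and 2, blue for control, red for GNE-987 and a bar for each group mean of 2 libraries. ASNS lies at 0.887 and 1.11 in control and at 11.1 and 11.2 with GNE-987, while TRIB3 goes from 53.6 and 48.7 to 4.21 and 4.39.

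The 10 genes moved apart in the deposited values. ASNS, PPP1R15A and SESN2 rose with GNE-987, TRIB3 and CHAC1 fell, and ATF4, ATF5, DDIT3 and DDIT4 stayed within a fold of 2, with SESN2 at -0.27 and PPP1R15A at 0.10 once libraries were scaled to GAPDH. VLDLR, at a mean under 0.5 FPKM, was not tested. The log2 fold changes ran from -3.54 (TRIB3) to 3.37 (ASNS), with standard errors between 0.0451 and 0.207, and their median was 0.23 against 0.17 for all 16668 tested genes and -0.29 for the protein-coding ones. A gene was called when limma gave an unadjusted P value under 0.05 and the fold change was over 2 or under 0.5, the thresholds of the study's methods.

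By that rule 3 of the 9 tested genes were higher and 2 were lower. Over all tested genes 33.6% were higher and 24.9% lower, and of the 10996 protein-coding ones 23.99% were higher and 31.7% lower, 55.7% in all, so the shares of 33.3% and 22.2% among the stress response genes were near the background and give no result about the group. All 9 passed 0.05 after Benjamini-Hochberg adjustment in limma, with a largest adjusted P value of 0.0426, as did 77.6% of all tested genes. Higher genes made up 57.5% of all calls as deposited, 61.1% with median-ratio scaling, 43.7% after quantile normalization, 38.6% with total reads and 23.7% with GAPDH, and the response genes then split into 3 higher and 2 lower, 3 and 2, 3 and 3, 2 and 4, and 1 and 6. Both GNE-987 libraries were above both control libraries for 6 of the 10 genes and below them for the other 4. Of all tested genes 47.5% were above and 41.6% below in this sense. Nothing in the labels says that the libraries of a group came from separate cultures, so the P values measure the spread between these libraries, which may be technical.

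Promoters were searched for the elements that bZIP dimers of this response recognise, and those of ASNS, CHAC1 and PPP1R15A are printed because they hold the longer matches. The composite C/EBP-ATF element, searched as TGATGNAA on both strands, was found in a promoter window of ASNS, which rose, and of CHAC1, which fell. The window of the other RefSeq start of ASNS did not hold it. The sequences are from the RefSeq promoter table on GRCh38.p14, run 5′ to 3′ on the gene's strand over the 250 bases before the transcription start, and carry in capitals the composite element (ASNS and CHAC1, the latter in reverse orientation) or the full cyclic AMP response element TGACGTCA (PPP1R15A). They lie at chr7:97872409-97872658 on the minus strand, chr15:40953221-40953470 on the plus strand and chr19:48872171-48872420 on the plus strand.
ASNS: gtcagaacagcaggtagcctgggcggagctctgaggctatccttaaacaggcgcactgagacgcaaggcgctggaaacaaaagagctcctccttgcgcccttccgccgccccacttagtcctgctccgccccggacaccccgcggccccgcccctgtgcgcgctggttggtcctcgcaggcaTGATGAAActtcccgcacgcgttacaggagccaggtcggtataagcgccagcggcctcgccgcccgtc
CHAC1: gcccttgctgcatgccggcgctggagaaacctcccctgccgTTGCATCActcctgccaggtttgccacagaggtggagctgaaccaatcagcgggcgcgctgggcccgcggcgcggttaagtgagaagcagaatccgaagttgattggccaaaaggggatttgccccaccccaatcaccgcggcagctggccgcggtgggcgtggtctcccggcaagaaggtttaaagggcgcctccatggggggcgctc
PPP1R15A: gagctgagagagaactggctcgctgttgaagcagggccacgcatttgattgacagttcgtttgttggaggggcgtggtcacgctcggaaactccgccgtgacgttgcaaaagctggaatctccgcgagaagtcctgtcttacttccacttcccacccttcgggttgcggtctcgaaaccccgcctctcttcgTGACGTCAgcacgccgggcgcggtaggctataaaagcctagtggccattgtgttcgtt

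The composite element lay at -68 to -61 from the start of ASNS and at -209 to -202 from that of CHAC1. Of 35116 windows from 250 bases before to 50 after a start, 3.62% held it. The full cyclic AMP response element lay at -58 to -51 in PPP1R15A, and 1.85% of windows held one. Its left part, TGACG, searched alone on both strands, was in 24.6% of windows and in those of ATF4, ATF5, ASNS and PPP1R15A, where 2 of the 3 matches overlap the full element. GENCODE release 44 begins each of the 3 printed genes further upstream, so the printed bases lie wholly within the annotated CHAC1 gene and partly within ASNS and PPP1R15A. All 10 genes had a window. A match of letters is a description and not a bound site, and no match says only that the letters are missing from that window.

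**Figure D2:**
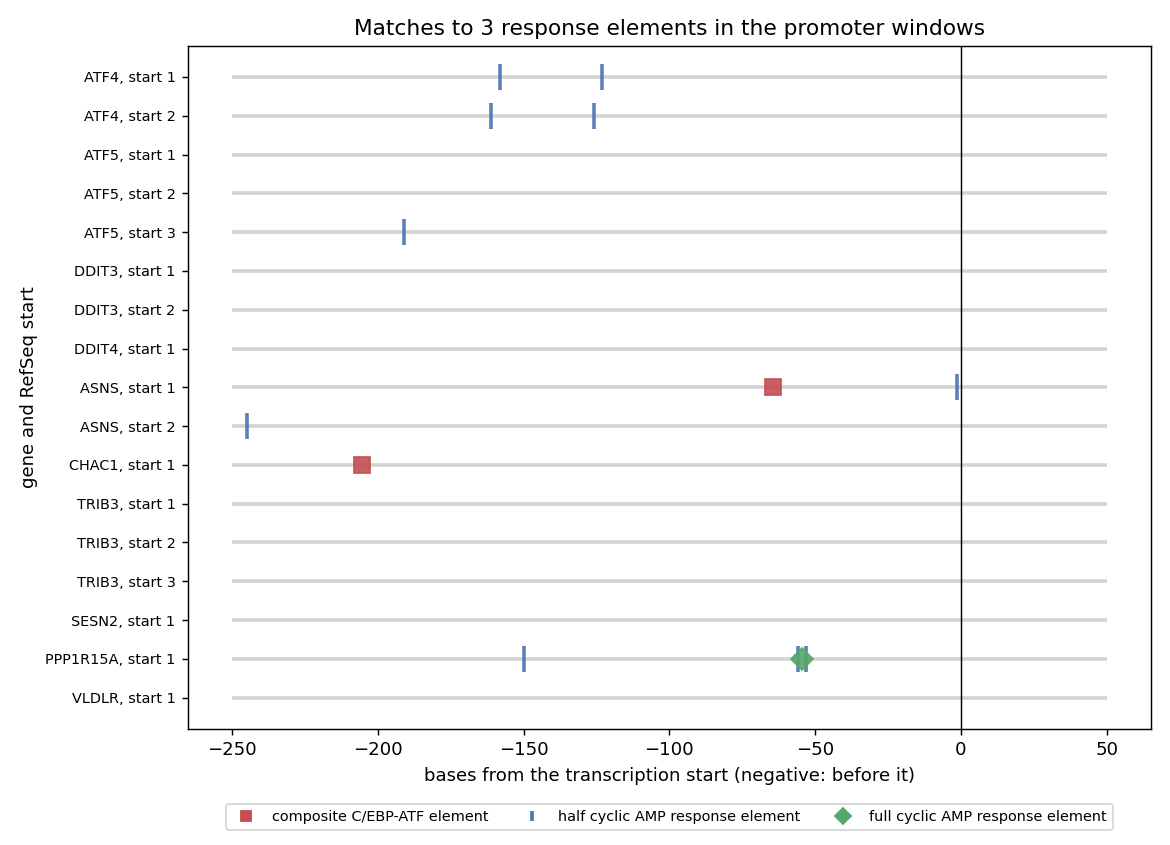
Matches to 3 elements in the RefSeq promoter windows of the 10 genes, 1 line per transcription start, with distance from the start in bases on the horizontal axis. Red squares mark the composite element, found in ASNS at -68 and in CHAC1 at -209, blue bars the left part TGACG and the green diamond the full element of PPP1R15A at -58.

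ATF4 (ENSG00000128272, chr22:39519695-39522683 of GRCh38, plus strand) had the highest level of the 10 genes in both groups. Control libraries had 116 and 118 FPKM and GNE-987 libraries 142 and 134 FPKM. The groups did not overlap, and their means were 117 FPKM ± 0.933 and 138 FPKM ± 5.57 (SD, n = 2). ATF4 had a log2 fold change of 0.23 (SE 0.0460, limma with Benjamini-Hochberg adjusted P value 0.0123), short of a fold of 2, and it was -1.62 with libraries scaled to GAPDH, -0.85 after quantile normalization and -0.55 with scaling to total reads. ATF4 RNA thus had a direction that depended on how the libraries were put on 1 scale. Its values rested on 6738 and 6547 reads in control and 2977 and 2968 with GNE-987. The 5 protein-coding genes nearest to ATF4 over the 4 libraries, by Euclidean distance on log2(FPKM + 0.1), were PTBP1 at a distance of 0.0578, VARS1 at 0.145, FASN at 0.146, HDGF at 0.155 and HNRNPK at 0.157. Among these, PTBP1 was at 116 and 118 FPKM in control and at 137 and 136 FPKM with GNE-987.

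ATF5 (ENSG00000169136, chr19:49928702-49933935, plus strand) encodes a related bZIP factor whose translation is also held back by upstream reading frames. It was at 9.35 and 10.3 FPKM in control and 4.78 and 6.94 FPKM with GNE-987. The GNE-987 libraries were both below the control ones and stood further apart from each other on the log scale than in the other 8 tested genes. The log2 fold change was -0.76 (SE 0.207, limma adjusted P value 0.0313), which was short of the fold threshold, and it passed at -1.03 without GNE-987 replicate 2, at -1.53 with scaling to total reads and at -2.59 with scaling to GAPDH. ATF5 shares 565 exon bases with NUP62 on the opposite strand (27.0 and 28.7 FPKM in control, 16.6 and 15.8 with GNE-987), and the kit does not mark strand, so reads there cannot be told apart.

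DDIT3 (ENSG00000175197, chr12:57516588-57521737, minus strand) encodes CHOP, the bZIP factor that joins ATF4 on genes of cell death under lasting stress. It was at 10.0025 and 7.75 FPKM in control and 12.9 and 11.9 FPKM with GNE-987. The groups did not overlap, but the gap between their nearest libraries was smaller than that between the 2 control libraries. The log2 fold change was 0.49 (SE 0.148, limma adjusted P value 0.0426), within a fold of 2, and it was -0.28 with scaling to total reads and -1.35 with scaling to GAPDH. DDIT3 rested on 301 and 224 reads in control and 141 and 137 with GNE-987. It shares 355 exon bases with MARS1 on the opposite strand, itself a tRNA charging gene, which went from 57.3 and 57.3 to 26.2 and 28.7 FPKM (log2 fold change -1.06, and -0.94 and so within a fold of 2 with median-ratio scaling). DDIT3 also shares 58 exon bases with MBD6 on the opposite strand, which went from 9.16 and 9.48 to 16.2 and 13.6 FPKM (log2 fold change 0.67). Another 105 are shared with ENSG00000285133 on its own strand, listed at 0 in every library. Reads in the shared bases cannot be told apart.

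ASNS (ENSG00000070669, chr7:97851677-97872542, minus strand) encodes asparagine synthetase, which makes asparagine from aspartate and glutamine. It was at 0.887 and 1.11 FPKM in control and 11.1 and 11.2 FPKM with GNE-987. Both GNE-987 libraries lay far above both control libraries, and the means were 0.997 FPKM ± 0.155 and 11.2 FPKM ± 0.0520 (SD, n = 2). The mean was 11.2-fold higher. The log2 fold change, taken on log2(FPKM + 0.1), was 3.37 (SE 0.133, limma adjusted P value 0.000241), past 92.0% of protein-coding genes. With 0.01 or 1 added in place of 0.1 it was 3.48 or 2.61. The increase held under every scaling tried, being lowest at 1.59 with GAPDH. The composite element stands in its printed promoter. Reads were 91 and 109 in control and 415 and 441 with GNE-987. ASNS shares 2415 exon bases with the long noncoding gene ENSG00000284707 on the same strand (0.202 and 0.242 FPKM in control, 0.641 and 0.712 with GNE-987), so the split of reads between them is uncertain.

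CHAC1 (ENSG00000128965, chr15:40952962-40956512, plus strand) encodes an enzyme that breaks down glutathione. Its level was 8.34 and 8.30 FPKM in control and 2.09 and 1.87 FPKM with GNE-987. The replicates were close to each other and the groups well apart, at 8.32 FPKM ± 0.0233 and 1.98 FPKM ± 0.156 (SD, n = 2). The mean of CHAC1 was 4.20-fold lower with GNE-987, and its log2 fold change on log2(FPKM + 0.1) was -2.02 (SE 0.0935, limma adjusted P value 0.000316). It had 395 and 378 reads in control and 36 and 34 with GNE-987. No other gene of the table overlaps it. Its printed promoter holds the composite element, as does that of ASNS, and the part of the element in either change was not tested.

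TRIB3 (ENSG00000101255, chr20:362835-397559, plus strand) encodes a pseudokinase that binds ATF4 and AKT. It was second to ATF4 among the 10 genes in control, at 53.6 and 48.7 FPKM, and eighth with GNE-987, at 4.21 and 4.39 FPKM. The means were 51.1 FPKM ± 3.42 and 4.30 FPKM ± 0.123 (SD, n = 2), which is 11.9-fold lower. The log2 fold change was -3.54 (SE 0.0715, limma adjusted P value 0.000117), and 0.332% of protein-coding genes had a lower one. TRIB3 had 4234 and 3700 reads in control and 121 and 133 with GNE-987. TRIB3 and CHAC1 were lower under every scaling, pseudocount and filter tried and without each library in turn.

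PPP1R15A (ENSG00000087074, chr19:48872212-48876059, plus strand) encodes GADD34, the subunit that directs protein phosphatase 1 to phosphorylated eIF2 and so closes the response. It was at 14.04 and 12.7 FPKM in control and 54.4 and 49.3 FPKM with GNE-987. The groups were apart by far more than the replicates, at 13.4 FPKM ± 0.948 and 51.9 FPKM ± 3.64 (SD, n = 2). The mean of PPP1R15A was 3.88-fold higher. Its log2 fold change on log2(FPKM + 0.1) was 1.95 (SE 0.0842, limma adjusted P value 0.000279), and 0.10 when libraries were scaled to GAPDH. The gene TULP2, whose own 3′ end lies 4905 bases beyond that of PPP1R15A on the opposite strand, was at 0.0776 and 0.141 FPKM in control and at 14.9 and 15.3 FPKM with GNE-987.

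SESN2 and DDIT4 both encode brakes on the growth kinase complex TORC1, and their RNA went different ways. SESN2 (ENSG00000130766, chr1:28259518-28282491, plus strand), a leucine sensor, was at 17.5 and 17.5 FPKM in control and at 51.5 and 53.5 FPKM with GNE-987. This is 2.997-fold higher, with a log2 fold change of 1.58 (SE 0.0451, limma adjusted P value 0.000167), which was 0.80 with scaling to total reads and -0.27 with scaling to GAPDH. DDIT4 (ENSG00000168209, chr10:72273919-72276036, plus strand), which encodes REDD1 and acts through the TSC complex, was at 39.0 and 35.3 FPKM in control and at 21.9 and 21.9 FPKM with GNE-987. Both GNE-987 libraries were below both control ones. The log2 fold change of DDIT4 was -0.76 (SE 0.0665, limma adjusted P value 0.00124), short of the fold threshold, and it passed at -1.12 after quantile normalization, -1.53 with scaling to total reads and -2.60 with scaling to GAPDH.

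VLDLR (ENSG00000147852, chr9:2621182-2660056, plus strand), a lipoprotein receptor, had few reads, at 0.0326 and 0.00968 FPKM in control and 0.282 and 0.231 FPKM with GNE-987. Both GNE-987 libraries were higher. The reads could be read as 14 and 4 against 44 and 38, or as 7 and 2 against 22 and 19, since both gave whole numbers. With no filter on low values the log2 fold change of VLDLR on log2(FPKM + 0.1) was 1.56 (SE 0.272, limma adjusted P value 0.0187), a scale that understates low genes. VLDLR shares 260 exon bases with VLDLR-AS1 on the opposite strand, which was listed at 0 for control and had 0.1198 and 0.1513 FPKM after GNE-987. It shares 1100 exon bases with the long noncoding gene ENSG00000286670, also on the opposite strand, for which the deposited data hold no values. Reads in the shared bases cannot be told apart.

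The order of the 10 genes by level, scaled by length, differed between the groups. In control it ran ATF4, TRIB3, DDIT4, SESN2, PPP1R15A, then ATF5, DDIT3 and CHAC1 with overlapping neighbours, then ASNS and VLDLR. With GNE-987 it ran ATF4, then SESN2 and PPP1R15A, which overlapped, then DDIT4, DDIT3, ASNS, ATF5, TRIB3, CHAC1 and VLDLR. TRIB3 and CHAC1 had moved below ASNS.

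Ratios between genes of 1 library do not depend on a scaling that gives each library 1 factor, though quantile normalization, which gives none, changes them. The log2 ratio of ASNS to TRIB3 was -5.92 and -5.46 in control and 1.40 and 1.35 with GNE-987, a difference of 7.07 in its mean. That of ASNS to CHAC1 was -3.23 and -2.91 in control and 2.41 and 2.58 with GNE-987, a difference of 5.57. So ASNS, at less than TRIB3 and CHAC1 in both control libraries, was above them in both GNE-987 libraries. Relative to ATF4, the mean log2 ratio changed by 3.26 for ASNS, 1.72 for PPP1R15A, 1.35 for SESN2 and 0.26 for DDIT3, and by -0.99 for DDIT4, -1.01 for ATF5, -2.31 for CHAC1 and -3.80 for TRIB3. For all 8 the libraries of the groups did not overlap in the ratio to ATF4. In FPKM, 47.5% of all tested genes were above and 41.6% below without overlap. No such share was computed for ratios to ATF4, so this count gives no result about the 8 genes. After quantile normalization the log2 fold changes of ATF5 (-0.77) and ATF4 (-0.85) were nearly equal and those of DDIT4 (-1.12) and DDIT3 (0.46) stood at other distances from ATF4. These are descriptions and were not tested.

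**Figure D3:**
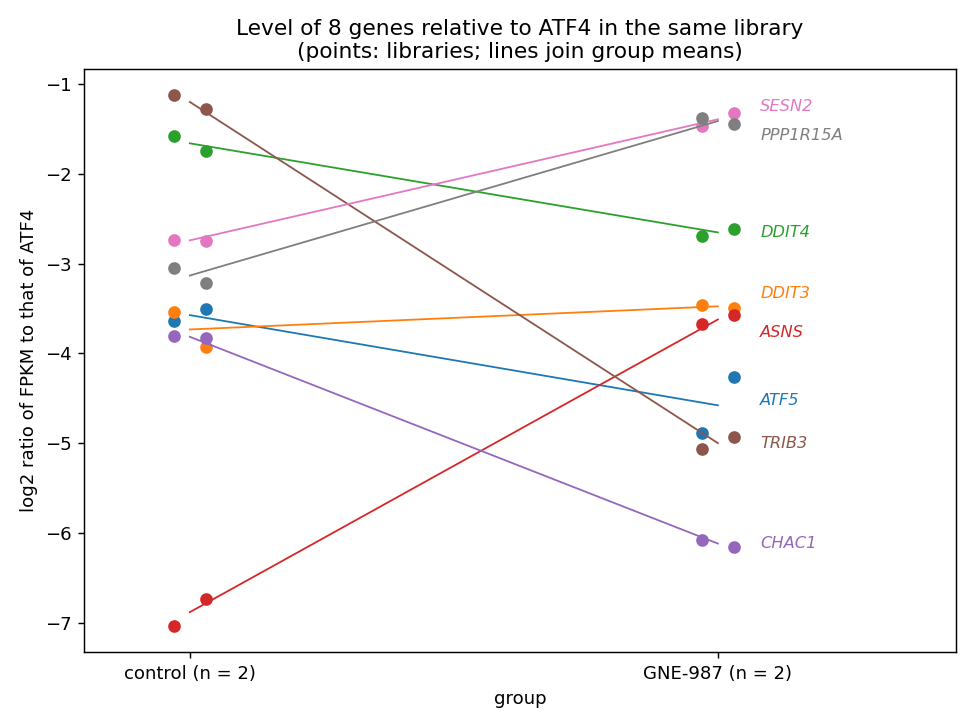
Log2 ratio of the FPKM of 8 genes to that of ATF4 in the same library (vertical axis) for control and GNE-987 (horizontal axis), with 1 point per library and lines joining the means of 2 libraries. ASNS moves from -7.04 and -6.73 to -3.67 and -3.58 and TRIB3 from -1.12 and -1.27 to -5.07 and -4.93, so their lines cross.

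The deposited scaling was not the only one possible. The values had been scaled to 23024012 and 22120718 reads in control, 1.18 and 1.15 times the recovered reads, and to 8360488 and 8826052 with GNE-987, 0.674 and 0.684 times those recovered. Scaling to total reads shifted the all-gene median by -0.74, GAPDH by -1.77, quantile normalization by -0.42 and median-ratio scaling by 0.11. Only median-ratio scaling moved it up, so these scalings could reverse an increase but could hardly reverse a decrease. GAPDH itself went from 398 and 432 to 1501 and 1499 FPKM in the deposited values. Measured from that all-gene median, ASNS stayed between 3.18 and 3.27, PPP1R15A between 1.69 and 1.89, SESN2 between 1.32 and 1.496, DDIT3 between 0.24 and 0.71, CHAC1 between -2.21 and -2.01 and TRIB3 between -3.77 and -3.68 over the 5 scalings. ATF4 lay between -0.61 and 0.06 of that median, ATF5 between -0.99 and -0.53 and DDIT4 between -1.01 and -0.87.

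**Figure D4:**
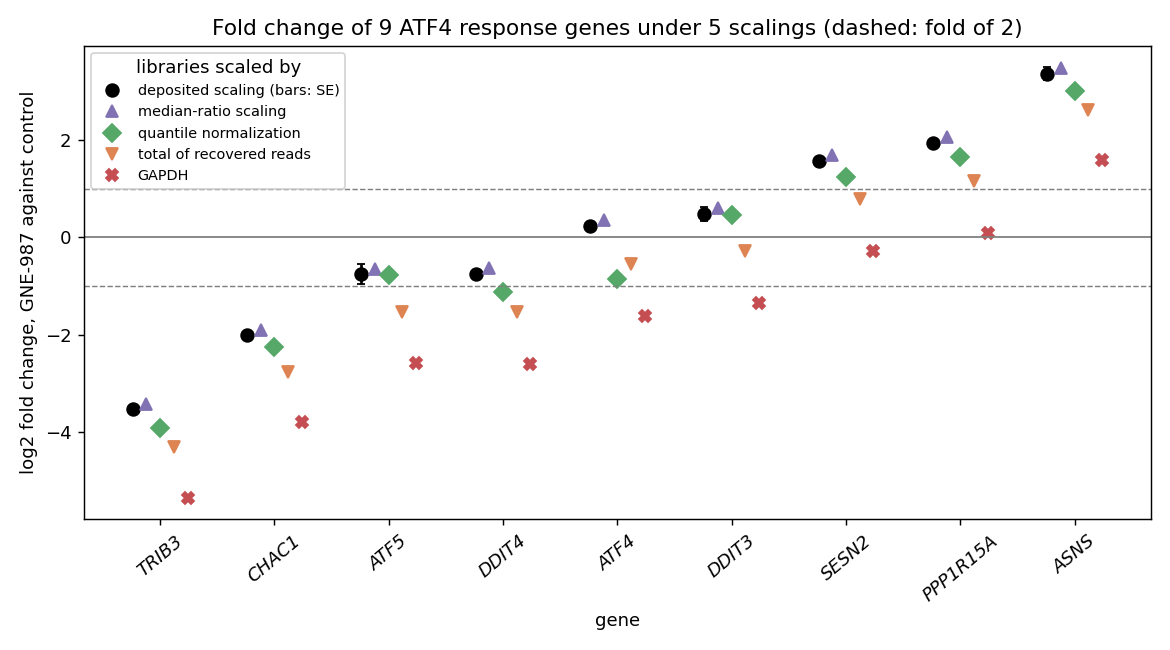
Log2 fold change, GNE-987 over control (vertical axis) for 9 genes (horizontal axis) under 5 scalings of the libraries, with standard errors on the deposited scaling and dashed lines at a fold of 2. ASNS is above 0 and TRIB3, CHAC1, ATF5 and DDIT4 are below it under all 5, while ATF4, DDIT3 and SESN2 change side, SESN2 only with GAPDH at -0.27.

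The upstream part of the response was next. Of 21 genes for the eIF2 kinases, eIF2, its exchange factor eIF2B and the phosphatase, 20 were tested. By limma with the fold threshold 0 rose and 7 fell (35%), beside 23.99% and 31.7% of protein-coding genes, so the share that fell was near the background. The median log2 fold change was -0.67 against 0.17 for all tested genes and -0.29 for protein-coding ones. The median was below 0 under all 5 scalings, which could hardly reverse that sign. Measured from the all-gene median of each scaling, it lay between -0.91 and -0.76. The count of genes that fell ranged from 5 with median-ratio scaling to 20 with GAPDH. EIF2B5, the catalytic subunit of the exchange factor, fell by 2.14 on the log2 scale and EIF2AK2, the RNA-sensing kinase, by 1.78. OMA1, the protease that relays mitochondrial stress, went from 2.13 and 1.97 to 0.129 and 0.579 FPKM, and its log2 fold change of -2.45 (SE 0.595) was -1.66 without GNE-987 replicate 1 and -3.23 without replicate 2, and was no longer called without either control library.

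Among 10 partner and related bZIP factors 9 were tested, and the median was -0.16. In this list 1 rose (11.1%) and 3 fell (33.3%), beside 23.99% and 31.7% of protein-coding genes, so the share that fell was near the background. ATF3, itself a target of ATF4, rose from 4.31 and 4.27 to 89.2 and 91.5 FPKM, a log2 fold change of 4.36 (SE 0.0463, limma adjusted P value 8.96e-05) that kept its direction under all 5 scalings. ATF1 (-2.29), CEBPG, a dimer partner of ATF4 (-2.11), and CEBPB (-1.49) fell under all 5, which could hardly reverse a decrease.

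The other known targets of ATF4 differed by list. Of 19 genes of amino acid supply 1 rose (5.26%) and 11 fell (57.9%), with a median of -1.33. Of 12 genes of tRNA charging 0 rose and 7 fell (58.3%), with a median of -1.07. Of all tested genes 33.6% rose and 24.9% fell, and of protein-coding ones 23.99% rose and 31.7% fell. The genes that fell numbered from 11 to 18 in the first list over the 5 scalings and from 5 with median-ratio scaling to 12 with total reads or GAPDH in the second. Both medians stayed below 0 under all 5 scalings, which could hardly reverse that sign. Measured from the all-gene median of each scaling, the first lay between -1.52 and -1.34. The median of the tRNA charging list lay between -1.32 and -1.14 in this measure. SLC7A1, the transporter of cationic amino acids, fell from 21.6 and 23.2 to 1.97 and 2.11 FPKM (log2 fold change -3.40), SLC6A9, a glycine transporter, fell by 3.13 on the log2 scale and ALDH1L2, a mitochondrial enzyme of folate metabolism, by 2.63. SLC3A2, the shared heavy chain of several amino acid transporters, went from 69.6 and 69.0 to 211 and 218 FPKM (log2 fold change 1.63). Its change was within a fold of 2 at 0.65 after quantile normalization and 0.85 with total reads, and was -0.23 with scaling to GAPDH. The tRNA exporter XPOT (-2.94) and the tRNA synthetases AARS1 (-1.89) and GARS1 (-1.23) fell. ASNS stood at the other end from most genes of amino acid supply, with an increase of 3.37.

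Targets of ATF4 and CHOP in stress, autophagy and death were split, with 21 of 23 tested, 7 higher (33.3%), 8 lower (38.1%) and a median of 0.25, beside 23.99% higher and 31.7% lower of protein-coding genes. With GAPDH 3 were higher and 14 lower. Beside ATF3, SQSTM1, the autophagy receptor p62, rose from 11.5 and 11.8 to 111 and 116 FPKM (log2 fold change 3.27) and MAP1LC3B, a coat protein of autophagosomes, rose by 2.99. Both were higher under all 5 scalings. STC2 (-4.06), a secreted glycoprotein, ADM2 (-3.26), a secreted peptide hormone, and NIBAN1 (-1.50) fell. NUPR1 and FGF21 were listed at 0 in all 4 libraries. The list's median was -0.52 with scaling to total reads, -0.53 after quantile normalization and -1.58 with GAPDH, so it had no fixed sign.

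Over the 3 target lists together, 52 genes were tested, 8 rose (15.4%) and 26 fell (50%), with a median of -1.02, beside 33.6% and 24.9% of all tested genes and 23.99% and 31.7% of protein-coding ones. The genes that fell numbered 24 with median-ratio scaling and 44 with GAPDH. Of the 13 tested genes with a composite element in a RefSeq window, 3 rose and 7 fell with a median of -1.06, and of the 29 without one 5 rose and 13 fell with a median of -0.46. The other 10 had no window, and 0 rose and 6 fell. This difference was not tested.

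**Figure D5:**
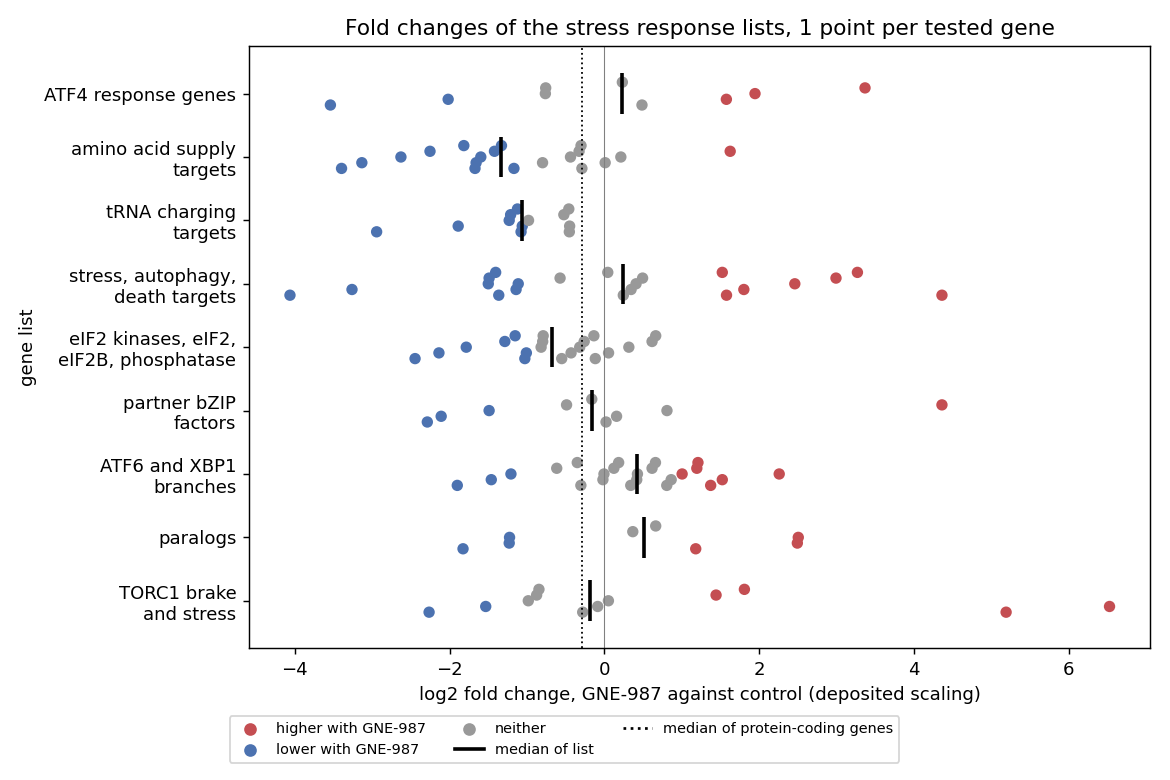
Log2 fold change, GNE-987 over control, in the deposited scaling (horizontal axis) for each tested gene of 9 lists (vertical axis), red for higher, blue for lower and grey for neither, with a black bar for each list's median and a dotted line at the protein-coding median of -0.29. The medians are -1.33 for amino acid supply, -1.07 for tRNA charging and 0.23 for the ATF4 response genes. The last is below 0 with quantile normalization, total reads or GAPDH.

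Of 9 paralogs of the 10 genes 8 were tested, 3 rose and 3 fell (37.5% each, beside 23.99% and 31.7% of protein-coding genes), and with GAPDH 0 rose and 5 fell. TRIB2, a pseudokinase like TRIB3, fell by 1.83 on the log2 scale, while TRIB1 rose by 1.18 in the deposited values but was at -0.61 with scaling to GAPDH. SESN3 rose by 2.49, as SESN2 did, and SESN1 was at 0.37, within a fold of 2. CHAC2, which like CHAC1 acts on glutathione, fell by 1.22. PPP1R15B, the constitutive partner of protein phosphatase 1, was at 0.66 and so within a fold of 2. The lipoprotein receptor LRP8 fell by 1.23. DDIT4L, not tested, was listed at 0 for control and had 0.240 and 0.0757 FPKM after GNE-987.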

How the data were processed

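RNA was sequenced from 2 control and 2 GNE-987-treated libraries of cells labelled NB4. The authors made the libraries with a TruSeq RNA kit, mapped reads with HISAT2 2.0.5 to hg38, per the submitters' processing notes, called differential expression with DESeq2 and deposited FPKM per gene. The counting program and annotation are not given in the sources used here. Identifiers were matched to GENCODE release 44 (58207 of 58735, 99.1%).

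The test was limma 3.58.1 (R 4.3.3) on log2(FPKM + 0.1) without a replicate block, and genes averaging under 0.5 FPKM were left out. P values were Benjamini-Hochberg adjusted over all 16668 tested genes. Fold changes on this scale understate low genes. Reads were recovered from the steps of the values, with a tolerance of 0.01. Of 32895 genes above 0, 53.0% came out whole at GENCODE lengths, among them 1 of the 10 genes, and a length was searched for the others, so their reads are a weak estimate. The steps were tested on simulated data.

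Named genes were the 10 genes, up to 3 largest increases and decreases past both thresholds per list, every gene of lists under 10 genes, the 5 genes nearest to ATF4, and GAPDH. A few listed genes are counted but not reported by name here. Overlapping or adjacent genes and the full cyclic AMP response element were added after values were seen. The members and the lists (eIF2 kinases and related genes, bZIP partners, 3 lists of targets, ATF6 and XBP1 branches, paralogs, TORC1 and stress genes) were chosen with earlier results of these data known. Alternatives were other scalings, pseudocounts, filters, thresholds, a replicate block, limma-voom on recovered reads and leaving out each library.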

Additional observations from a re-analysis of the deposited data

How the results depend on the processing

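ASNS was higher and TRIB3 and CHAC1 lower past both thresholds under every alternative run. With scaling to GAPDH, 1 of the ATF4 response genes was higher and 6 lower, and of the other listed genes 5 were higher and 98 lower; ATF4 was at -1.62, DDIT3 at -1.35, SESN2 at -0.27, PPP1R15A at 0.10, ATF5 at -2.59 and DDIT4 at -2.60. With scaling to total reads 4 response genes were lower, and of the others 11 were higher and 69 lower; ATF4 was at -0.55, DDIT3 at -0.28, SESN2 at 0.80, ATF5 at -1.53 and DDIT4 at -1.53. In limma-voom on recovered reads 4 response genes were lower, 11 others higher and 69 lower, with ATF4 at -0.55, DDIT3 at -0.29, SESN2 at 0.80, ATF5 at -1.54 and DDIT4 at -1.54. Quantile normalization put ATF4 at -0.85 and DDIT4 at -1.12. The scaling itself moved these values. Calls over all genes split into 5602 higher and 4148 lower as deposited, 3031 and 9738 with GAPDH, 4235 and 5464 with quantile normalization, and 4180 and 6649 with total reads.

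Without each library in turn, the response genes gave 3 higher and 2 to 3 lower, the others 19 to 20 higher and 41 to 43 lower, and all genes 9006 to 9172 calls. ATF5 passed only without GNE-987 replicate 2, at -1.03. Across genes, the deviations of libraries with the same replicate number had a correlation of 0.00537. With 2 pairs this cannot show whether such libraries were handled together. A replicate block in the fit gave 9853 calls against 9750, with no call changed among the response genes. The DESeq2 and edgeR alternatives planned for counts were not run, since the values are FPKM. Depth limits VLDLR most, with as few as 4 or 2 reads in a control library.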

Other observations

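Of 24 genes of the ATF6 and XBP1 branches of the unfolded protein response, which run beside the ATF4 branch, 23 were tested, 6 rose (26.1%) and 3 fell (13.0%), beside 23.99% and 31.7% of protein-coding genes, with a median log2 fold change of 0.42 in the deposited values and -0.11 after quantile normalization, -0.36 with scaling to total reads and -1.43 with GAPDH, where 0 rose and 16 fell. SYVN1, a ubiquitin ligase of the endoplasmic reticulum, rose by 2.26, HERPUD1 by 1.53 and EDEM1 by 1.37, the latter 2 being at -0.31 and -0.46 with scaling to GAPDH. XBP1 (-1.90), SDF2L1 (-1.46) and ATF6 (-1.21) fell under all 5 scalings, which could hardly reverse a decrease.

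Of 13 genes of TORC1 control and cell stress, the neighbours of DDIT4 and SESN2 in function, 12 were tested, with a median of -0.18. By the fold threshold 4 rose (33.3%) and 2 fell (16.7%), beside 33.6% and 24.9% of all tested genes. Of protein-coding genes 23.99% rose and 31.7% fell. The share that rose was near that of all tested genes, and no result about the list is drawn from these counts. With GAPDH 2 rose and 8 fell. CDKN1A, the cell cycle inhibitor p21, went from 0.812 and 0.548 to 70.0 and 71.9 FPKM (log2 fold change 6.53), and TXNIP from 26.2 and 26.4 to 971 and 961 FPKM (5.19). RPTOR, a core subunit of TORC1, fell by 2.26 and NPRL2, of a complex that restrains it, by 1.53.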
